A study of Homo sapiens with 21 samples.

Results

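MM.1S, an established human multiple myeloma line from peripheral blood, was exposed to pomalidomide, and the second day of that exposure is described here: 3 libraries collected after 48 h against 3 collected after 24 h, 6 of the 21 libraries of the series. Every gene with at least 1 TPM in at least 3 of the 21 libraries entered the comparison, which gave 12559 of 17691 listed genes. The rest of the 21 libraries, of control, ARID2 and Aiolos knockdown, entered that filter and the shared estimate of spread, but no comparison. All cells of the groups compared here were labelled wild type. The 48 h and 24 h groups both received 1 µM pomalidomide, and 2 further groups of 3 libraries, untreated cells and cells with 72 h of the drug, served to place the second day beside the first and the third. The labels give 1 untreated group and no time for it, so hours of drug and hours of culture cannot be told apart. Levels are in TPM, a unit in which reads are first divided by gene length and each library is then brought to 1 common total. A TPM value is therefore a share of the library, not an amount per cell.

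Pomalidomide is an immunomodulatory drug that docks on cereblon (CRBN), the part of a CUL4 ubiquitin ligase that picks substrates, and turns the ligase on proteins it would otherwise leave alone, first among them Ikaros (IKZF1) and Aiolos (IKZF3). These zinc finger factors sustain a plasma cell programme in myeloma, with IRF4 and MYC downstream of them. Loss of the 2 factors is known to slow the cell cycle of myeloma cells before the cells die, and to raise interferon-stimulated genes.

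The second day was dominated by a fall of the genes of cell division. All 92 genes of mitosis tested and all 53 of DNA replication were lower at 48 h. Genes of autophagy, lysosomes, the myeloma surface and antigen presentation were mostly higher, by smaller steps, and MAF, the oncogenic transcription factor that a translocation activates in this line, rose from a mean of 528 to 1149 TPM. IRF4, which had fallen during the first day, was higher again at 48 h. Of 42 genes of actin and adhesion, 28 had risen during the first day and 27 fell during the second, against 35.1% and 26.1% of all genes.

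Differences are given as log2 steps, the difference between group means on log2(TPM + 1) with its standard error, so a step of 1 is a doubling. A gene was said to rise or fall where limma gave a Benjamini-Hochberg adjusted p under 0.05 over all 12559 genes. By that rule 7306 genes (58.2%) changed between 24 and 48 h, 4026 (32.1%) higher and 3280 (26.1%) lower. Most of these steps were small, and 77.2% of the genes that changed moved by less than 1.5 times. A step of at least 1 was reached by 147 genes (1.17%) upward and by 389 genes (3.1%) downward (318 and 529 where 0.1 is added to TPM in place of 1, 38 and 271 where 5 is added), and a step of at least 2 by 4 upward and 46 downward. The median step of all genes was 0.04. Biological replicates are stated for each group, with no word on separate cultures or days, so every p-value here reflects only how far these libraries differed from each other. The 3 libraries of 1 time did not overlap with those of the other in 4311 genes (34.3%) that were higher at 48 h and in 3475 (27.7%) that were lower.

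**Figure D1:**
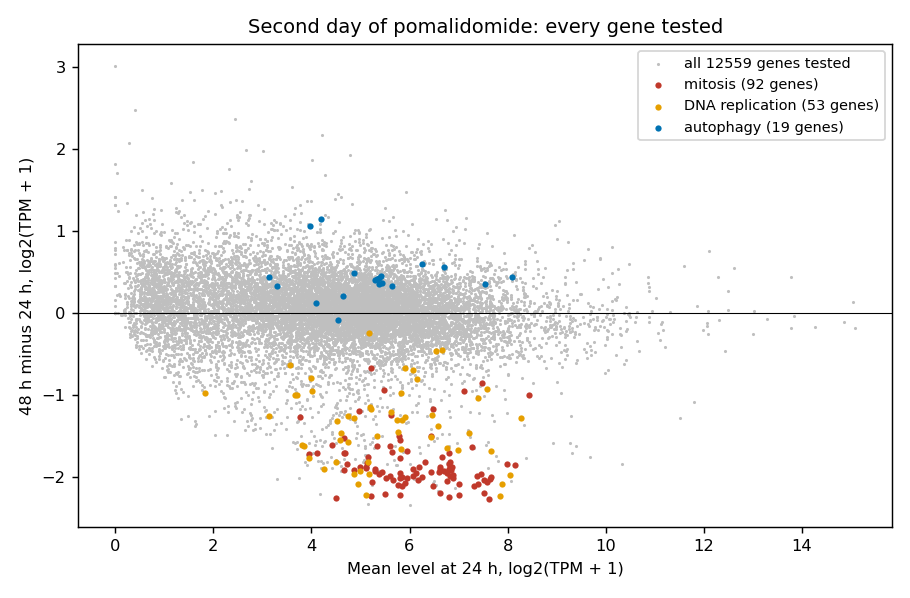
Each dot is 1 of 12559 genes, with its mean level at 24 h on log2(TPM + 1) across and its step from 24 to 48 h up the page. The 92 mitosis genes and the 53 DNA replication genes lie below 0, the mitosis genes mostly near -2, and the 19 autophagy genes lie almost all above 0.

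No library stood apart. Libraries of 1 time correlated at 0.9931 to 0.9945 across genes, and libraries of different times at 0.9706 to 0.9727, and no pair shared identical values. The depth of the libraries is unknown, since TPM keeps no record of it. Mitochondrial mRNA took 17.0% ± 0.497 (SD, n = 3) of listed TPM at 24 h and 16.7% ± 0.131 at 48 h (exact permutation test, two-sided, p = 0.4, where 3 against 3 cannot go below 0.1), and messages of cytosolic ribosomal proteins took 7.82% ± 0.240 and 7.25% ± 0.0616 (exact permutation p = 0.1, the smallest possible). All 10 plasma cell markers were present, with a summed level of 8580 to 8800 TPM per library at 24 h and 8880 to 9010 at 48 h. Markers of other cells stayed low: B cells before the plasma stage summed to 43.5 to 49.0 and then 55.0 to 59.1 TPM with 3 of 7 markers at 0 throughout, T and NK cells to 1.48 to 3.34 and then 1.62 to 2.83, and myeloid cells to 4.84 to 7.4 and then 7.10 to 11.6. Markers of epithelial and stromal cells summed to 2.51 to 3.71 and then 0.783 to 1.67 TPM, and erythroid markers to 9.46 to 16.7 and then 15.9 to 19.2. A single gene made most of the B cell sum, CD79B, with means of 46.1 TPM at 24 h and 55.9 at 48 h. HBB did so for the erythroid sum, with means of 13.3 and 17.5 TPM. The other listed members of both sets had means under 1 TPM at both times. The part of these markers of other cells in the results was not tested.

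Mitosis is run by cyclin-dependent and Polo kinases, which start the programme, by the kinetochore and its checkpoint, which tie chromosomes to the spindle, and by the anaphase-promoting complex, which ends it. Messages of these proteins are made mostly in G2, and in bulk RNA fewer cells in G2 and less of a message per cell cannot be told apart. All 92 listed members fell, 87 of them with a step of at least 1, against 26.1% and 3.1% of all genes. Their median step was -1.92, with members between -2.27 and -0.67. The 24 and 48 h libraries did not overlap for any of the 92, all lower at 48 h, against 27.7% of all genes.

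Among the regulators of mitotic entry, PLK1, the Polo kinase (chr16:23677656-23690367, + strand of GRCh38), stood at 134, 121 and 128 TPM in the 24 h libraries and at 25.3, 28.3 and 26.6 TPM in the 48 h libraries. The highest 48 h library lay far below the lowest 24 h library, and the step was -2.21 ± 0.05 (adjusted p = 9.42e-18). CCNA2, the cyclin of S phase and G2, fell from 178, 189.6 and 184 to 41.6, 38.8 and 37.7 TPM, a step of -2.19 ± 0.06. GTSE1, a G2 and S phase microtubule protein, fell from a mean of 108 ± 1.77 to 25.4 ± 0.732 TPM (SD, n = 3). PKMYT1, which holds CDK1 inactive, fell from 36 to 6.92 TPM. All 16 members of this class fell, and 2 of them had steps above -1, CDC25B (-0.85) and MASTL (-0.67), which were named after their values were seen.

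At the end of mitosis the pattern was the same. CDC20, the activator of the anaphase-promoting complex (chr1:43358955-43363203, + strand), had the deepest step of the list: its level was 196, 189 and 198 TPM at 24 h and 39.9, 42.8 and 36.2 TPM at 48 h, a step of -2.27 ± 0.09 (adjusted p = 1.54e-14). TRIP13, which takes apart the checkpoint complex, fell from 129 ± 2.6 to 29.5 ± 1.01 TPM, and CDCA3, which promotes mitotic entry, from 44.7 ± 0.94 to 10.4 ± 0.519. All 7 genes of this class fell.

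All 25 kinetochore and checkpoint genes fell by at least 1. BUB1, a checkpoint kinase, was at 160.2, 168 and 169.6 TPM and then at 42.8, 40.6 and 40.1 TPM, and its relative BUB1B at a mean of 167 ± 9.3 and then 38.5 ± 2.24. ZWINT, a kinetochore scaffold partner, fell from 182 ± 9.2 to 43.7 ± 3.18 TPM. SKA3 and SPC25, which bind microtubules at the kinetochore, had steps of -2.26 ± 0.11 and -2.20 ± 0.10. All 28 spindle genes also fell by at least 1. PRC1, which bundles the midzone of the spindle, went from 99.8, 98.4 and 101 to 31.3, 27.4 and 28.2 TPM, a step of -1.75 ± 0.04 (adjusted p = 5.36e-18), and TACC3, which crosslinks spindle fibres, had a step of -1.90 ± 0.04. RACGAP1, of the centralspindlin complex, had a step of -1.71 ± 0.04, and CEP55, which acts in the final cut between daughter cells, -2.22 ± 0.08.

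The 16 genes of the chromosome passenger complex, cohesion and condensin all fell, 13 of them by at least 1. BIRC5, or survivin, was at 113, 110.0 and 109.9 TPM and then at 24.4, 23.1 and 20.8 TPM, a step of -2.24 ± 0.05 (adjusted p = 1.71e-17). Its partner CDCA8, or borealin, fell from 158 ± 2.92 to 36.1 ± 0.827 TPM, and NCAPH of condensin I from 66.5 ± 2.79 to 16.1 ± 0.588. The 3 members above -1 were condensin subunits, SMC4 (-0.99), NCAPD2 (-0.95) and NCAPD3 (-0.94).

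Many mitotic promoters carry a cell cycle homology region (CHR), which the DREAM and MYB-MuvB complexes bind, and promoters of G1 to S genes carry E2F sites. In RefSeq's windows of 250 bases before to 50 after each gene start on GRCh38.p14, which matched 10144 of the 12559 genes, the CHR letters TTTGAA were found on either strand in 52 of 79 mitosis windows (65.8%), in 2 of 46 DNA replication windows (4.35%) and in 10.0% of all 10144. E2F letters (TTTGGCGC, TTTCCCGC, TTTCGCGC or TTTGCCGC, either strand) were found in 8.86% of the mitosis windows, in 20 of the 46 DNA replication windows (43.5%) and in 5.5% of all. CCAAT, the letters that NF-Y binds, was found in 68.4%, 50% and 37.1%. Over the 315 windows of genes that fell by at least 1, the shares were 33.3% for CHR, 16.5% for E2F and 60.0% for CCAAT, and over the 107 windows of genes that rose by at least 1 they were 10.3%, 1.87% and 31.8%. The 389 genes that fell by at least 1 hold 87 of the mitosis genes and 40 of the DNA replication genes. Their shares thus count in part the same windows again. These matches describe letters and are not bound sites.

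The stretches below, 70 bases each and upstream of the start that RefSeq's promoter table uses, are shown because these 4 genes were among the 12 deepest falls and carry a CHR, in capitals, read 5′ to 3′ along the gene. They lie at chr1:43358884-43358953 (+ strand, CDC20), chr16:23678819-23678888 (+ strand, PLK1), chr10:93496464-93496533 (+ strand, CEP55) and chr2:168890611-168890680 (- strand, SPC25). The PLK1 and SPC25 stretches lie inside the longer spans that GENCODE annotates for these genes. In CEP55 the letters stand in reverse complement.
CDC20: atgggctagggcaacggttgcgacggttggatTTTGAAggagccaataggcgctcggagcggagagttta
PLK1: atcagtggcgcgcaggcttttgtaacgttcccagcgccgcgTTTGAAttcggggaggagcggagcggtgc
CEP55: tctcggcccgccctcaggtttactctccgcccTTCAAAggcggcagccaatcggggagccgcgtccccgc
SPC25: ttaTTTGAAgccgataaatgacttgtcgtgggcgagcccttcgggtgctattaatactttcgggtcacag

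The next 4 stretches belong to DNA replication genes and show an E2F match in capitals, on the strand opposite to the letters searched. They lie at chr18:657582-657651 (+ strand, TYMS), chr16:88803719-88803788 (+ strand, CDT1), chr13:33818062-33818131 (+ strand, RFC3) and chr16:85688955-85689024 (- strand, GINS2). The CDT1, RFC3 and GINS2 stretches lie inside the spans that GENCODE annotates, and the TYMS stretch in part.
TYMS: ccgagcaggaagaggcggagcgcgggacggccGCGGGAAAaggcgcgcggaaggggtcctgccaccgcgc
CDT1: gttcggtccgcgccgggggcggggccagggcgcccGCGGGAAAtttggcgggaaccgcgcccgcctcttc
RFC3: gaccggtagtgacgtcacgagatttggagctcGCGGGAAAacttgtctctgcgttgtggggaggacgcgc
GINS2: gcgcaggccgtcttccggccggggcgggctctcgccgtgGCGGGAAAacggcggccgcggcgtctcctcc

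DNA replication starts where the MCM helicase is loaded on origins by CDC6 and CDT1, and needs polymerases, a sliding clamp and a supply of deoxynucleotides. All 53 listed members fell on the second day, 40 of them by at least 1, against 26.1% and 3.1% of all genes, with a median step of -1.32. Of the 20 genes of origin licensing and the helicase, 18 fell by at least 1. CDC6, the loader, was at 35.5, 34.5 and 30.6 TPM and then at 6.41, 6.2 and 6.65 TPM, a step of -2.22 ± 0.06 (adjusted p = 6.01e-17). The 4 genes whose promoters are shown above also fell: TYMS, thymidylate synthase, went from 239, 234 and 237 to 53.6, 56.9 and 55 TPM, the smallest adjusted p of the genes named here (1.58e-20), and CDT1, RFC3 and GINS2 had steps of -1.96, -1.81 and -1.61. The helicase subunits MCM2 and MCM6 had steps of -1.67 ± 0.05 and -1.38 ± 0.03.

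The nucleotide enzymes RRM2 and RRM1, the subunits of ribonucleotide reductase, both fell. RRM2 went from 226, 228 and 230.4 to 50.2, 48.3 and 44.8 TPM, a step of -2.23 ± 0.06, and RRM1 from 148, 144 and 148 to 56.1, 50.9 and 51 TPM, a step of -1.46 ± 0.04. FEN1, the flap endonuclease, fell from 201 ± 1.91 to 62.1 ± 2.5 TPM, CHAF1B, a chromatin assembly factor, from 34.4 ± 0.35 to 9.02 ± 0.48, and TIMELESS, a fork protein, from 86.1 ± 0.692 to 29.6 ± 1.26. The shallowest member was POLA1, the catalytic subunit of polymerase alpha, with -0.24 ± 0.05.

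**Figure D2:**
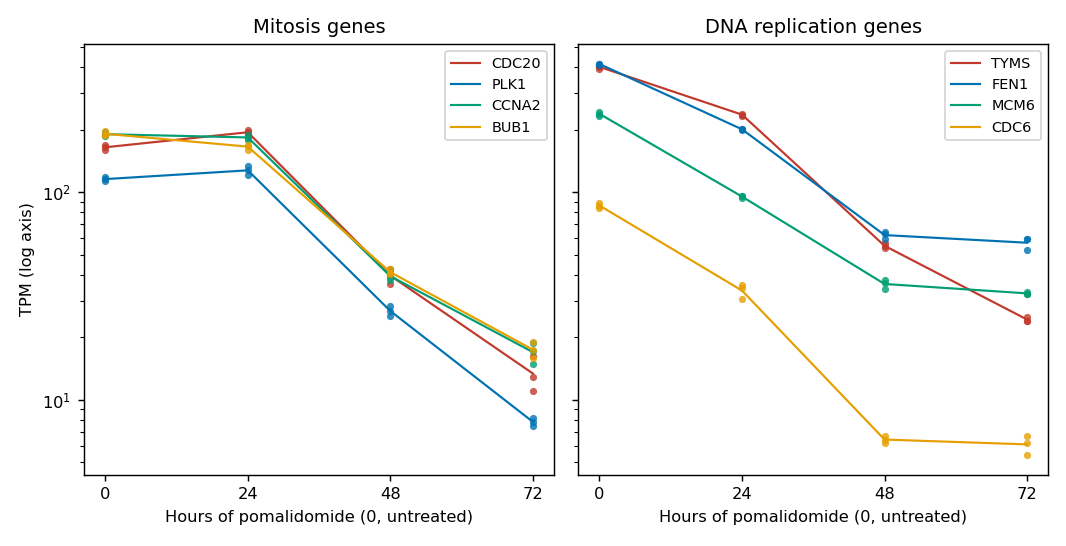
TPM on a log axis against hours of pomalidomide for 4 mitosis genes and 4 DNA replication genes, with a dot per library and a line through the group means. The mitosis genes are nearly level from 0 to 24 h and fall from 24 to 48 h, while the DNA replication genes fall over both days.

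DNA repair shared the direction in 42 of 46 genes, against 26.1% of all genes, and the other 4 did not pass. All 26 genes of homologous recombination and the Fanconi pathway fell, with a median step of -1.43. FANCI, a subunit of the clamp that the pathway ubiquitinates, was at 92.5, 97.3 and 101 TPM and then at 25.7, 25.1 and 23.1 TPM, a step of -1.93 ± 0.04. Its ubiquitin-conjugating enzyme UBE2T fell from 193 ± 8.46 to 51.5 ± 3.74 TPM, FANCG by a step of -1.62 ± 0.06, and BRCA1 with a step of -1.52 ± 0.06. Mismatch and base excision repair, by contrast, had a median step of -0.29, with 8 of 10 genes lower. CDC25A, the phosphatase that the damage checkpoint destroys, fell from 37.8 to 11.4 TPM.

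Of 36 regulators of the cell cycle tested, 25 fell and 4 rose, against 26.1% of all genes lower and 32.1% higher. E2F1, an activator of S phase genes, was at 95.6, 82 and 90.4 TPM and then at 20, 21 and 21.7 TPM, a step of -2.04 ± 0.05 (adjusted p = 2.78e-17), and E2F2 had a step of -1.63 ± 0.05. MYBL2, the MYB partner of the mitotic activator complex, fell from 223 ± 3.42 to 63.1 ± 3.13 TPM. The CDK adaptors CKS1B and CKS2 had steps of -1.60 ± 0.04 and -1.58 ± 0.05. CDKN3, a phosphatase of CDK2, fell with a step of -2.33 ± 0.10, the second deepest step of the 12 largest falls after SAPCD2 (-2.34 ± 0.08), a protein that orients the spindle.

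The 4 that rose were CDKN1C, CDKN1B, RBL2 and E2F5. CDKN1C, the inhibitor p57, was at 6.97, 6.3 and 8.21 TPM and then at 18.6, 18.4 and 18.5 TPM, a step of 1.27 ± 0.09 (adjusted p = 1.79e-10). CDKN1B, the inhibitor p27, was at 280.0, 289 and 289.9 and then at 369, 347 and 362 TPM. RBL2, the p130 pocket protein of the DREAM repressor, had a step of 0.28 ± 0.05 and E2F5, a repressive E2F, of 0.37 ± 0.09.

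Chromatin genes that a dividing cell renews fell in 16 of 20 cases, against 26.1% of all genes. LMNB1, or lamin B1, fell from 120.2 ± 1.18 to 26.6 ± 0.15 TPM, UHRF1, which guides maintenance methylation, had a step of -1.93 ± 0.06, and HMGB2 and HMGB3, DNA-bending proteins, of -1.71 ± 0.03 and -1.85 ± 0.06. The Polycomb methyltransferase EZH2 fell from 71.2 to 32.8 TPM while its paralog EZH1 rose from 49.5 to 74.1. DNMT3A and TET2, which add and oxidise DNA methylation, rose by 0.40 ± 0.07 and 0.44 ± 0.07.

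The listed levels of replication-dependent histones went the other way, with 12 of 20 higher, 1 lower and 7 not passing, and a median step of 0.64. Of all genes 32.1% were higher and 26.1% lower. HIST1H2AC was at 16, 18.7 and 18.3 TPM and then at 80.1, 83.1 and 85.6 TPM, a step of 2.17 ± 0.08, and HIST1H2BK rose from 26.7 ± 3.39 to 104 ± 5.03 TPM. HIST1H2BD rose by 2.36 ± 0.20. Most messages of this family end in a stem loop without a poly(A) tail, and its members share near-identical sequence, which makes the level of any single member uncertain. The tailless message in these libraries was not measured. The counts and the median therefore do not measure the histone message of S phase as a whole. Variant histones did not follow: H2AFZ fell from 624 ± 22 to 260.1 ± 5.29 TPM and H2AFX, which marks breaks, from 204 ± 8.74 to 85.3 ± 1.2.

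The 12 largest rises, among genes whose libraries did not overlap and that reached 5 TPM at the higher time, with histones and other families of close copies left aside, were led by MMP9, a gelatinase, with 5.57, 5.53 and 4.99 TPM at 24 h and 23, 26.3 and 23.3 TPM at 48 h, a step of 1.99 ± 0.12 (adjusted p = 2.1e-11). HEY1, a transcriptional repressor induced by Notch, was at 6.71, 5.99 and 8.33 and then at 30.7, 26.5 and 33.8 TPM, and DLL4, a Notch ligand, at 3.3, 1.89 and 1.96 and then at 8.62, 8.65 and 7.99 TPM. HSD11B1, which regenerates active glucocorticoid, rose from 15.2 ± 1.83 to 57.9 ± 3.47 TPM. CTGF, a matrix signalling protein, rose from 18.4 ± 0.869 to 61.4 ± 3.37, and YIPF1, a Golgi membrane protein, from 60.2 ± 0.338 to 169 ± 7.4 TPM.

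Also among the 12 were TLN2, a talin that links integrins to actin (1.83 ± 0.10), ELOVL3, a fatty acid elongase (1.76 ± 0.17), MYH7B, a myosin heavy chain (1.60 ± 0.10), FRAS1, a matrix protein (1.58 ± 0.09), and TBC1D4, a regulator of vesicle traffic (1.54 ± 0.08). By TPM the largest rises were of other genes. ITGB7, the beta 7 integrin, went from 14506, 13557 and 14139 to 18864, 19218 and 19197 TPM, and MT-CO1, a mitochondrial subunit of cytochrome oxidase, from 34010.0 to 37290.0. PBXIP1, a partner of PBX factors, rose from 4429 to 7483 TPM, TXNDC5, a disulfide isomerase of the endoplasmic reticulum, from 6264 to 9160.0, ITM2C from 5039 to 6835, and the ferritin light chain FTL from 3118 to 4638.

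The drug acts on proteins, so the messages of its targets need not fall. IKZF1 was at 66.4, 66.8 and 67 TPM and then at 85.9, 83.7 and 82.1 TPM, a rise of 0.33 ± 0.04 (adjusted p = 2.92e-06). IKZF3 was at 109, 115 and 122 and then at 124, 125 and 120.0 TPM, with overlapping libraries and a step of 0.09 ± 0.05 that did not pass (adjusted p = 0.107), though it did under quantile normalization (0.0229) and without the third 24 h library (0.0357). CRBN rose from 16.1 ± 0.554 to 19.3 ± 1.31 TPM (adjusted p = 0.00951). RBX1, the RING subunit of the same ligase, fell with a step of -0.47 ± 0.04. ARID2, a subunit of the PBAF remodelling complex and a reported target of the drug, had a step of 0.09 ± 0.07 (adjusted p = 0.243), while PBRM1 of the same complex fell with a step of -0.31 ± 0.06. Of 28 genes of the ligase, its substrates and PBAF, 10 rose, 5 fell and 13 did not pass, beside 32.1% of all genes higher and 26.1% lower.

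Plasma cell regulators rose more often than they fell, with 13 of 28 higher, 7 lower and a median step of 0.16, against 32.1% and 26.1% of all genes. MAF (chr16:79585843-79600714, - strand) was at 508, 525 and 551 TPM and then at 1144, 1157 and 1146 TPM, a step of 1.12 ± 0.04 (adjusted p = 6.33e-16). IRF4, on which myeloma cells depend, was at 142, 148 and 149.6 TPM and then at 198, 196 and 206 TPM, a step of 0.44 ± 0.04 (adjusted p = 1.64e-09), although untreated cells had held 469 ± 8.66 TPM. PRDM1, or Blimp-1, had a step of 0.50 ± 0.04 and XBP1 one of 0.05 ± 0.02 that did not pass (adjusted p = 0.0712). BACH2 and MEF2C, factors of the B cell stage, rose by 0.84 ± 0.06 and 0.58 ± 0.04, and RUNX2 by 0.67 ± 0.04.

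MYB, a factor of immature and cycling blood cells, fell from 5.95, 6.34 and 5.61 to 1.43, 1.87 and 1.48 TPM, the deepest step of these regulators (-1.43 ± 0.09). ID2, an inhibitor of E proteins, fell with a step of -0.52 ± 0.08, and IRF8 and RUNX1 with steps of -0.39 ± 0.12 and -0.19 ± 0.06, both of which missed the threshold without the third 24 h library (adjusted p = 0.0518 and 0.0586). MYC itself rose slightly, from 277, 269 and 263 to 284, 281 and 295 TPM (0.09 ± 0.03, adjusted p = 0.0222), a call that was lost under median-of-ratios scaling (adjusted p = 0.122) and without the third 24 h library (0.103), the second 24 h library (0.0528) or the third 48 h library (0.111). Of its network, the MAX partners that oppose MYC divided: MXD1 rose from 15.5 ± 0.905 to 27.8 ± 0.916 TPM, MXI1 and MXD4 rose by 0.64 ± 0.06 and 0.33 ± 0.05, and MXD3, which is expressed in S phase, fell from 42.3 ± 1.51 to 18.5 ± 1.55.

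Interferon-stimulated genes, which the drug is known to raise in myeloma cells, moved both ways on the second day. Of 51 tested, 21 rose, 8 fell and 22 did not pass, beside 32.1% of all genes higher and 26.1% lower, and the median step was 0.11, beside 0.50 on the first day. STAT2, a subunit of the interferon-activated factor ISGF3, was at 168, 163 and 175 TPM and then at 304, 311 and 298 TPM, a step of 0.84 ± 0.03. IRF7, a master regulator of interferon genes, rose by 1.02 ± 0.10, IRF2 by 0.34 ± 0.04 and the kinase JAK1 by 0.58 ± 0.04. Among the effectors, the guanylate-binding protein GBP4 rose from 10.8 ± 0.498 to 24.7 ± 1.53 TPM, and GBP1 fell from 48 ± 1.08 to 27 ± 1.15. IFIT3 and OAS3, antiviral RNA sensors and effectors, fell with steps of -0.77 ± 0.08 and -0.65 ± 0.09.

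Antigen presentation was higher in 16 of 27 genes and lower in 2, with a median step of 0.17. The shares over all genes were 32.1% and 26.1%, and their median step was 0.04. CD74, the invariant chain of class II, was at 1865, 1824 and 1922 TPM and then at 2472, 2549 and 2582 TPM, a step of 0.44 ± 0.04. HLA-DRB1 rose by 0.65 ± 0.08, and the class I genes HLA-B and HLA-E by 0.32 ± 0.03 and 0.48 ± 0.03. HLA genes are close copies of each other, which makes the level of any single one uncertain. RFX5, an activator of class II promoters, fell with a step of -0.30 ± 0.04.

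On the myeloma surface 25 of 40 genes rose and 2 fell, with a median step of 0.19. Of all genes 32.1% rose and 26.1% fell, with a median step of 0.04. MME, or CD10, was at 180.3, 194 and 195 TPM and then at 391, 373 and 360.2 TPM, a step of 0.98 ± 0.08. LY9, or SLAMF3, rose from 54.3, 57 and 60.7 to 115, 113 and 117 TPM, CD28, a costimulatory receptor, from 233 ± 7.91 to 336 ± 9.85, and CD59, which blocks complement, from 649 ± 9.97 to 938 ± 6.98. CD38, a target of therapeutic antibodies, was at a mean of 16.6 ± 1.28 and then 21.6 ± 1.26 TPM (adjusted p = 0.00047), SLAMF7 rose by 0.21 ± 0.03, and TNFRSF17, or BCMA, had a step of -0.04 ± 0.03 that did not pass. The 2 that fell were MICA and MICB, stress ligands that natural killer cells read through NKG2D, with steps of -0.38 ± 0.10 and -0.62 ± 0.06.

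Genes of NF-kB signalling rose in 10 of 18 cases and fell in 2, beside 32.1% of all genes higher and 26.1% lower. TNFAIP3, the feedback inhibitor A20, went from 176, 182 and 184 to 255, 249 and 239.8 TPM, NFKBIZ from 12.4 ± 1.46 to 23.4 ± 2.41 and IL2RG, the common gamma chain, by 0.57 ± 0.03. Immediate early genes rose in 6 of 17 cases, near the 32.1% of all genes, and fell in 2, among them SRF, which drives actin and early response genes, with -0.42 ± 0.05.

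Apoptosis genes held both signs. Of 20 that promote death, 7 rose and 5 fell, shares near the 32.1% and 26.1% of all genes, and of 9 that oppose it, 4 rose and 5 did not pass. BBC3, or PUMA, was at 18.2, 16.8 and 16.4 TPM and then at 38.1, 34.2 and 39.6 TPM, a step of 1.08 ± 0.08. BMF went from 385, 387 and 387 to 584, 606 and 602 TPM and BCL2L11, or BIM, from 137 ± 0.644 to 186 ± 8.29. On the opposing side, BCL2 rose from 31.8, 35.7 and 35 to 65.2, 61.6 and 58.8 TPM and CFLAR, which blocks caspase 8, by 0.69 ± 0.05. The death receptor FAS fell from 14.7 ± 1.09 to 7.86 ± 0.663 TPM, and PMAIP1, or NOXA, with a step of -0.68 ± 0.10. Genes known as p53 targets rose in 11 of 19 cases and fell in 4: TP53INP1 rose by 0.62 ± 0.06, EDA2R by 0.78 ± 0.11 and XPC by 0.55 ± 0.04, while AEN and FDXR fell with steps of -0.56 ± 0.06 and -0.46 ± 0.10.

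Autophagy encloses cytoplasm in membrane and delivers it to lysosomes. Of 19 core genes 17 rose and 2 did not pass, with a median step of 0.41, against 32.1% of all genes higher and a median of 0.04. GABARAPL1, an ATG8 family protein of the autophagosome membrane, was at 16.7, 17 and 18.1 TPM and then at 37.8, 39.1 and 41.1 TPM, a step of 1.14 ± 0.06 (adjusted p = 1.64e-12). ULK1, the starting kinase, went from 14.8, 15.4 and 14 to 30.7, 32.7 and 31.6 TPM. The cargo receptors NBR1, OPTN and SQSTM1 rose by 0.59 ± 0.04, 0.56 ± 0.04 and 0.35 ± 0.05, and BECN1 by 0.43 ± 0.04. The 2 that did not pass were ATG5 (-0.08) and ATG16L1 (0.12), which act in 1 complex.

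Lysosomal genes rose in 23 of 39 cases and fell in 6, with a median step of 0.21, against 32.1% of all genes higher and 26.1% lower. PSAP, the precursor of the saposins, went from 1457, 1416 and 1419.9 to 2138, 2155 and 2178 TPM, and the cathepsins CTSB and CTSA rose by 0.60 ± 0.03 and 0.66 ± 0.04. GLA, which removes galactose, fell from 60.9, 62.1 and 65 to 30.5, 30.2 and 31.7 TPM, and GUSB with a step of -0.53 ± 0.03.

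Genes of ribosome biogenesis, ribosomal proteins and tRNA synthetases were mostly lower. Of 40 ribosome biogenesis genes 38 fell and 2 missed the threshold, against 26.1% of all genes lower, and their median step was -0.40. NCL, or nucleolin, was at 435, 435 and 416 TPM and then at 279, 291 and 285 TPM, a step of -0.58 ± 0.03, and NOP58 and NOP56, which guide modification of ribosomal RNA, fell with steps of -0.74 ± 0.04 and -0.56 ± 0.04. Of 73 ribosomal protein genes 45 fell and 3 rose, with a median of only -0.12. RPL41 went from 5544 to 4034 TPM and RPL13A rose by 0.18 ± 0.04, and the many processed copies of these genes make their values uncertain. Of 20 cytosolic tRNA synthetases 14 fell and 1, SARS, rose (0.28 ± 0.06), and FARSB fell with a step of -0.52 ± 0.04.

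The proteasome fell in 32 of 35 genes, with a median step of -0.39. PSMD14, its deubiquitinase, was at 46.7, 50.6 and 48.1 TPM and then at 30.2, 26.9 and 30.8 TPM, and PSMA2 and PSMB2 fell with steps of -0.64 ± 0.05 and -0.56 ± 0.04. The 1 gene of the list that rose was NFE2L1, the transcription factor that drives proteasome genes, from 159.9, 154 and 162 to 216, 217 and 212 TPM. CCT2 and CCT5, subunits of the CCT chaperonin that folds actin and tubulin, fell with steps of -0.41 ± 0.04 and -0.46 ± 0.03, whereas the heat shock genes DNAJB6 and HSPH1 rose by 0.48 ± 0.05 and 0.19 ± 0.05. In all, 6 of 26 heat shock and chaperone genes rose and 10 fell, beside 32.1% of all genes higher and 26.1% lower.

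Of 49 genes of the endoplasmic reticulum 16 were higher, a share near the 32.1% of all genes, and 20 were lower, beside 26.1%. HERPUD1, of the degradation pathway, was at 337, 325 and 320.1 TPM and then at 463, 480.0 and 483 TPM, MZB1, which assists antibody secretion, rose by 0.49 ± 0.04, and the sensor kinase ERN1 by 0.45 ± 0.04. SEC24D of the export coat and FKBP11 fell with steps of -0.55 ± 0.05 and -0.49 ± 0.04, and the isomerases PDIA4 and PDIA6 with steps of -0.27 ± 0.03 and -0.18 ± 0.02. Of 21 ATF4 target genes 6 were higher and 9 lower: CHAC1 and SESN2 rose by 0.80 ± 0.09 and 0.58 ± 0.06, and the amino acid transporter SLC7A5 fell from 70.4 ± 3.43 to 30 ± 1.93 TPM.

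Energy metabolism was lower in most genes. Of 23 glycolysis genes 17 fell and 1 rose, with a median step of -0.34, against 26.1% of all genes lower and 32.1% higher. LDHA, lactate dehydrogenase A, was at 323, 323 and 314 TPM and then at 127, 124 and 119 TPM, a step of -1.37 ± 0.04 (adjusted p = 1.06e-16), and PKM, the pyruvate kinase, fell with a step of -0.76 ± 0.04. Of 71 nuclear genes of oxidative phosphorylation 59 fell and 2 rose, with a median of -0.29: COX8A fell with a step of -0.57 ± 0.04 and UQCRH with a step of -0.51 ± 0.03, and the 2 that rose were SDHC and SDHD, the membrane anchors of complex II, of which SDHD missed the threshold without the first 24 h library (adjusted p = 0.079). Of 13 mitochondrial messages 2 rose, MT-ND1 (0.27 ± 0.03) and MT-CO1 (0.13 ± 0.03), and 6 fell, among them MT-ATP6 (-0.19 ± 0.04) and MT-CO3 (-0.17 ± 0.03). Under quantile normalization the step of MT-ND1 turned to -0.018 and that of MT-CO2 to 0.00.

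Lipid synthesis held some of the deeper falls outside the cell cycle. Of 42 genes 24 fell and 8 rose, against 26.1% of all genes lower and 32.1% higher. SREBF1, the factor that drives fatty acid genes, was at 89.9, 80.2 and 75.8 TPM and then at 27.1, 24.7 and 26.5 TPM, a step of -1.61 ± 0.06, and its target SCD, the fatty acid desaturase, fell from 149 ± 5.74 to 51.6 ± 3.25 TPM. EBP, a sterol isomerase of the late steps to cholesterol, fell with a step of -1.19 ± 0.05. Serine and one-carbon enzymes fell in 8 of 10 cases, with SHMT2 at -0.67 ± 0.04 and SHMT1 at -0.88 ± 0.05. Of 18 antioxidant genes 4 rose and 8 fell, beside 32.1% of all genes higher and 26.1% lower. SLC48A1, a heme transporter, rose from 42.1 ± 0.409 to 80.5 ± 1.85 TPM and HMOX1, heme oxygenase 1, from 45.1 ± 2.39 to 71.1 ± 4.86. FTH1, the ferritin heavy chain, fell with a step of -0.30 ± 0.04 as the light chain FTL rose by 0.57 ± 0.05.

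Actin and its regulators fell in 27 of 42 genes and rose in 4, with a median step of -0.25, against 26.1% of all genes lower and 32.1% higher. ACTB (chr7:5527147-5563784, - strand) was at 3635, 3457 and 3555 TPM and then at 1714, 1646 and 1646 TPM, a step of -1.09 ± 0.03, and ACTG1 at 2929.9, 2837 and 2959 and then at 1241, 1188 and 1165 TPM, a step of -1.28 ± 0.04. FLNA, which crosslinks actin, fell from 181 ± 7.14 to 89.2 ± 1.56 TPM, TPM4, a tropomyosin, from 286 ± 0.504 to 188 ± 5.43, and CFL1, or cofilin, from 439 ± 21.2 to 275 ± 5.99. The 2 cytoplasmic actins are near copies with many pseudogenes, so their separate values are uncertain. CORO1B, MYL12B, TPM1 and GSN rose, by 0.40 ± 0.08, 0.17 ± 0.04, 0.41 ± 0.11 and 0.44 ± 0.14, of which GSN missed the threshold without the second 24 h or the first 48 h library (adjusted p = 0.0645 and 0.0718).

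**Figure D3:**
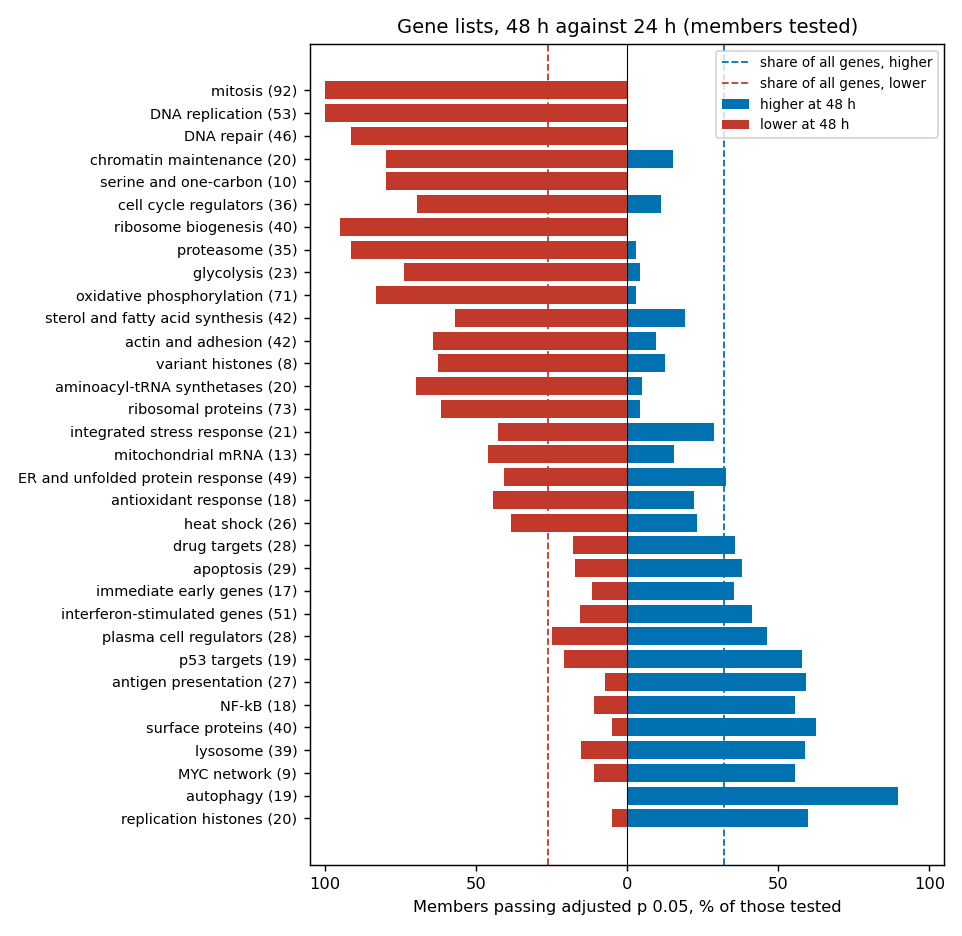
For each gene list, the bars give the percent of tested members that were lower (left) or higher (right) at 48 h, ordered by median step, and the dashed lines give the same shares over all 12559 genes, 26.1% and 32.1%. Mitosis, DNA replication, DNA repair, ribosome biogenesis and the proteasome reach furthest left, and autophagy reaches furthest right.

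The second-day step was then set beside the first-day step, 24 h minus untreated, and the third-day step, 72 minus 48 h. The steps share libraries (the 24 h group closes the first and opens the second), so their values are given side by side and each difference of steps was tested as its own contrast in the same limma fit. On the first day 4408 genes (35.1%) rose and 3893 (31.0%) fell, and on the third day 3967 (31.6%) rose and 2067 (16.5%) fell. The second-day step was above the first in 2236 genes (17.8%) and below it in 2659 (21.2%). The third-day step was above the second in 3319 genes (26.4%) and below it in 2525 (20.1%).

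For mitosis the second day differed from the first in every gene. On the first day 20 of the 92 genes rose and 36 fell, with a median of -0.07, and all 92 second-day steps lay below the first. Of all genes 35.1% rose and 31.0% fell on the first day, and 21.2% had a second-day step below the first. CDC20 rose from 165 to 195 TPM on the first day before its fall to 39.6, and PLK1 from 116 to 128 before 26.8. On the third day 88 of the 92 fell further, with a median of -1.13, and 87 third-day steps were above the second. PLK1 reached 7.82 ± 0.351 and CDC20 13.4 ± 2.71 TPM at 72 h.

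DNA replication began to fall earlier. On the first day 52 of its 53 genes fell, with a median of -0.88, and on the second day all 53, with a median of -1.32. The second-day step was below the first in 35 genes and above it in 3 (POLA1, RPA2 and DCTPP1), against 21.2% and 17.8% of all genes. The third-day median was -0.26, with 34 genes lower and 3 higher, and 50 third-day steps were above the second. CDC6 stood at 86.3 ± 2.29 TPM untreated, 33.6 at 24 h, 6.42 ± 0.222 at 48 h and 6.09 ± 0.639 at 72 h, and its third-day step of -0.07 ± 0.06 did not pass (adjusted p = 0.34).

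Ribosome biogenesis fell on both days and turned on the third. Its median step was -0.48 on the first day and -0.40 on the second, and 39 of 40 genes rose on the third day, with a median of 0.46. All 40 third-day steps were above the second, against 26.4% of all genes. NCL stood at 646 TPM untreated, then at 428, 285 and 402. The proteasome had the same order, with medians of -0.30, -0.39 and 0.19 and 32 of 35 third-day steps above the second.

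For most actin genes the second-day step lay below the first. Of 42 genes 28 rose on the first day, with a median of 0.37, and 28 second-day steps were below the first while 14 did not differ from it, against 21.2% of all genes below. ACTB stood at 2371 ± 12.7 TPM untreated, then at 3549, 1669 and 847 ± 24.7, and ACTG1 at 1426 ± 22.1, 2909, 1198 and 358 ± 12. At 72 h both were below the untreated level in every library.

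**Figure D4:**
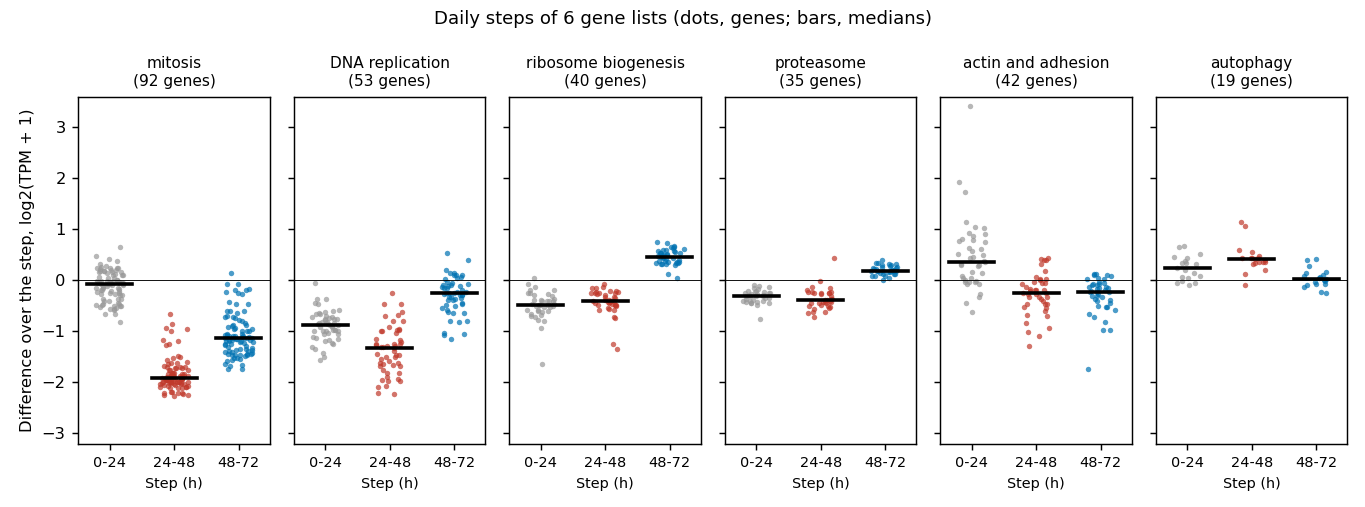
Each dot is a gene and each bar a list median, for the steps from 0 to 24, 24 to 48 and 48 to 72 h on log2(TPM + 1). Mitosis drops from 24 h on, DNA replication from the start, ribosome biogenesis and the proteasome rise in the last step, and the median of the actin genes changes from above 0 to below 0.

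Some single genes turned upward, and others kept falling by a smaller step. IRF4 had a first-day step of -1.67 ± 0.04, and its second-day step was 2.12 ± 0.06 above it (adjusted p = 3.43e-15). It stood at 469, 147, 199.8 and 229 TPM over the 4 times, so at 72 h it was still below the untreated cells. MYC had a first-day step of -0.83 ± 0.03 and a difference of steps of 0.91 ± 0.05, and stood at 479, 269.8, 286 and 305 TPM. HEY1 fell with a step of -0.46 before its rise. INSIG1, the sterol-regulated anchor of SREBP, had lost most of its level on the first day, from 472 ± 3.81 to 52.9 ± 2.7 TPM, and lost less on the second, to 34 ± 0.498. The sterol and fatty acid list as a whole had a second-day step above the first in 25 of 42 genes, against 17.8% of all genes. Even so, 24 of the 42 fell on the second day and 8 rose.

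Other genes rose on the first day by log2 steps that were much larger than those of the second. LAMB3, a laminin chain, went from 1.01 to 61.7 and then 119.9 TPM, LGALS3BP, a secreted glycoprotein, from 0.316 to 32.5 and then 57.1 (its second-day step missed the threshold with 0.1 added to TPM, adjusted p = 0.144), and MME from 5.34 to 189.8 and then 375. P2RY6, a nucleotide receptor, rose from 0.943 to 28.1 TPM and then fell to 21.2, and GBP6 was listed at 0 in untreated cells, at 15.5 ± 1.28 TPM at 24 h and at 13.8 ± 1.11 at 48 h (adjusted p = 0.364). The pro-apoptotic BMF went from 50.1 to 386, 597 and 534 TPM. Interferon-stimulated genes had a second-day step below the first in 24 of 51 cases and above it in 8, beside 21.2% and 17.8% of all genes. MAF showed the opposite order, with a first-day step of 0.22 ± 0.04, a difference of steps of 0.90 ± 0.06 (adjusted p = 3.46e-10) and 1303 TPM at 72 h.

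**Figure D5:**
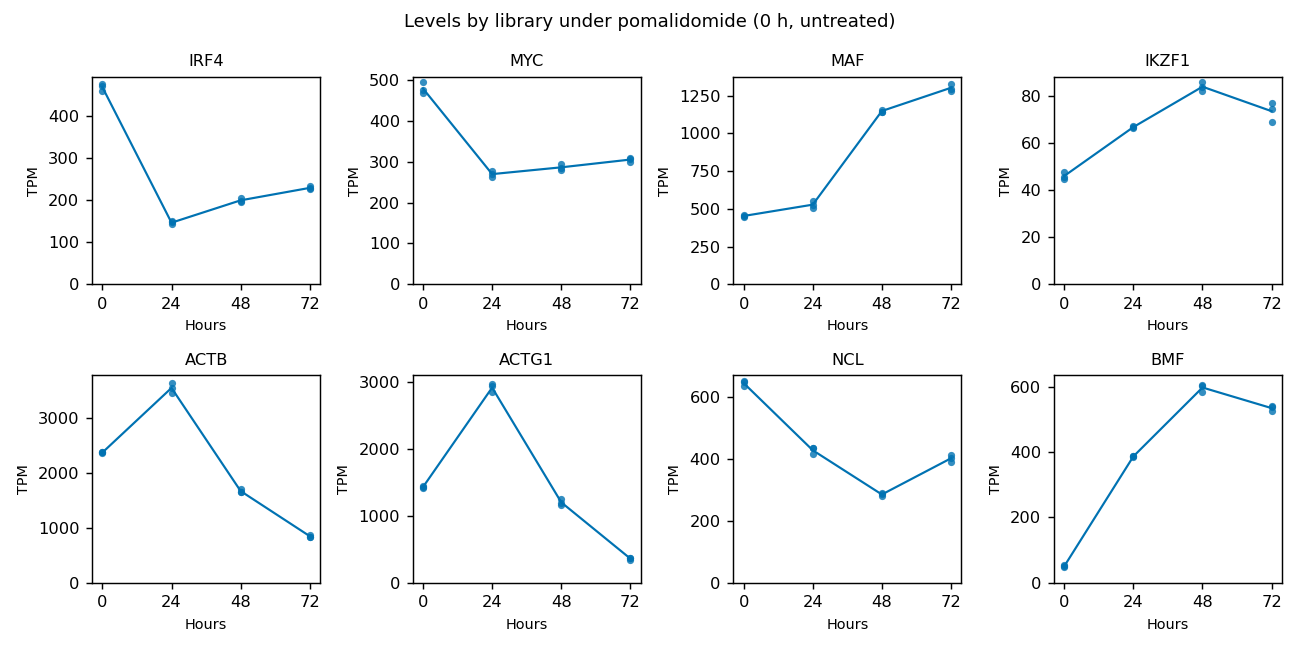
TPM by library (dots) and group mean (line) against hours of pomalidomide for 8 genes, each axis from 0. IRF4 and MYC fall and then climb, MAF climbs most from 24 to 48 h, ACTB and ACTG1 peak at 24 h, NCL is lowest at 48 h, and IKZF1 and BMF are highest at 48 h.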

How the data were processed

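Total RNA of MM.1S cells was made into libraries with the TruSeq RNA v2 kit and read on Illumina's NovaSeq system, as the labels' protocols and the series' design text state, and the genome build was hg38, per the submitters' processing notes. The authors deposited 1 table of TPM with 17691 gene symbols and 21 library columns. No source used here names the aligner, the quantifier or the annotation. TPM keeps no depth, so no interval for counting error can be given, and a gene's TPM can fall because others rose. The 12559 genes that reached 1 TPM in 3 or more libraries were analysed on log2(TPM + 1), a scale that understates the change of low genes. All 21 libraries entered 1 fit in limma 3.58.1 (R 4.3.3) with 7 group means, a trend in the prior variance, and 14 residual and 5.28 prior degrees of freedom. The control, ARID2 and Aiolos knockdown groups thus share in the estimate of spread. With only the compared groups in the fit, 6886 genes changed between 24 and 48 h in place of 7306. Tests were two-sided with Benjamini-Hochberg adjustment over all genes of a contrast. The fit was checked on simulated data with independent noise for each gene and library. Such data hold no error shared by a library or a group, so the check does not cover one.

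The members and gene lists were chosen with earlier results of these data known. Named genes are IKZF1, IKZF3, CRBN, ARID2, IRF4 and MYC, the 12 largest rises and falls among genes that passed, did not overlap and reached 5 TPM, the 6 largest TPM rises and falls, the 5 largest differences between the first 2 daily steps in each direction, and up to 5 members per direction of each list (3 per role for mitosis and DNA replication), by smallest p. Clone names, readthrough genes and close-copy families were passed over. Some genes that this rule names are not reported here. Further list members named in the text were chosen after their values were seen. Symbols matched 1 gene of GENCODE 29 (GRCh38) in 12390 of 12559 cases. Shares of TPM were compared by exact permutation. Alternatives were another pseudocount (0.1 or 5), no filter or one of 5 TPM, other scalings, no trend, a block on replicate numbers, only the compared groups, and leaving out each library.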

Additional observations from a re-analysis of the deposited data

Results flagged for a closer look

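Of 217 genes whose values are given here, 43 had first-day and second-day steps that both passed, went opposite ways, and differed by limma's test of the difference itself, with 15 falling and then rising and 28 rising and then falling. The value in brackets after a gene is the second-day minus the first-day step on log2(TPM + 1), and the Benjamini-Hochberg adjusted p of that difference lay between 3.43e-15 (IRF4) and 0.00466 (E2F5).

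Among the genes that fell and then rose, the plasma cell and B cell factors were IRF4 (2.12), PRDM1 (1.11), RUNX2 (0.77) and MYC (0.91). The Notch-induced repressor HEY1 (2.43) and PVRIG (3.23), an inhibitory receptor at low level here (10.4, 1.25 and 2.93 TPM), had the largest differences in this direction. The others were SLAMF7 (1.28), IL2RG (0.88), IRF2 (0.53), HSPH1 (1.34), CHAC1 (1.02), NFE2L1 (0.55), DNMT3A (0.66), E2F5 (0.57) and SDHD (0.42).

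Among the genes that rose and then fell, those of mitosis were CDC20 (-2.51), PLK1 (-2.35), BUB1B (-2.33), CDCA8 (-2.29), CDCA3 (-2.29), GTSE1 (-2.22), PRC1 (-1.91) and CDC25B (-1.32), and those of actin were ACTG1 (-2.31), FLNA (-1.93), ACTB (-1.67) and TPM4 (-1.38). The interferon-stimulated genes were IFIT3 (-3.50), GBP1 (-2.27) and OAS3 (-2.16), and the nucleotide receptor P2RY6 had the largest difference of all 43 (-4.29). The transcriptional regulators were MXD3 (-1.72), RUNX1 (-1.18), IRF8 (-1.09) and ID2 (-0.97), and the others were SEC24D (-1.16), COX8A (-0.68), GUSB (-0.63), FTH1 (-0.60) and PDIA6 (-0.24). The mitochondrial messages MT-ATP6 (-0.31), MT-CO3 (-0.27) and MT-CO2 (-0.19) had small differences, and the second-day fall of MT-CO2 missed the threshold without the filter on low values (adjusted p = 0.0807) and was 0.00 under quantile normalization. The second-day calls of MYC, RUNX1, IRF8 and SDHD were lost under the alternatives given beside them above.

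The first-day and second-day steps share the 24 h libraries, so an error in that group moves them in opposite directions. For 40 of the 43 genes, all but HEY1, E2F5 and NFE2L1, the 3 libraries at 24 h lay outside the range of both the untreated and the 48 h libraries. The genes were picked for steps that passed in opposite directions, which favours such a gap. An error shared by all 3 libraries at 24 h would give the same gap. Whether there was such an error was not tested.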

How the results depend on the processing

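The number of genes that changed between 24 and 48 h was 7306 and ranged from 6666 to 7459 over the settings that kept all compared libraries, and from 6722 to 6873 where 1 library was left out. The share of them that were higher was 55.1% and lay between 52.1% (median-of-ratios scaling) and 56.5% (rescaled without mitochondrial mRNA). Rises of at least 2-fold on the log scale numbered 147, but 318 with a pseudocount of 0.1 and 38 with one of 5, and 138 to 164 without 1 library. Falls of at least 2-fold ranged from 384 to 402 without 1 library. Genes whose second-day step differed from the first ranged from 4104 to 4694 without 1 library, and those whose third-day step differed from the second from 5001 to 5692. The sign turned for MT-CO2 (0.00) and MT-ND1 (-0.018) under quantile normalization, and for SSBP4, whose step of -0.09 had not passed, which ranged from -0.364 to 0.188 without 1 library. The mitochondrial share differed with a step of -0.287 percentage points, and with a step of -0.572 to -0.117 without 1 library. The median step of each list kept its sign under median-of-ratios scaling, quantile normalization and, except for the mitochondrial messages, which it removes, rescaling without mitochondrial mRNA. With the replicate block 7245 genes changed, 4792 and 5764 differed between steps, and 1 named gene lost its call. Same-numbered 24 and 48 h libraries shared no deviation (r across genes = 0.00289, -0.00968 and -0.0242), so the numbers were not taken as pairs. Replication histones that rose numbered 7 in place of 12 under the filter of 5 TPM, which tests fewer of them. Depth is unknown, so what it limits cannot be stated for single genes.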
